A study of Homo sapiens with 60 samples.

Results

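The 40 genes described here encode the extracellular matrix and the receptors that hold cells to it. They were listed by gene name, as 11 genes of fibronectin and the collagens, 8 of laminins and the basement membrane, 8 of matricellular proteins, elastic fibres and crosslinking enzymes, 10 integrin subunits and 3 other matrix receptors. All 40 were found among the 38342 gene names of the deposited table, and 35 were abundant enough to be tested, with at least 1 FPKM (fragments per kilobase of transcript and M reads) in at least 3 libraries.

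The cells were MDA-MB-231, an established triple-negative breast cancer line of mesenchymal character, which stands for a single tumour. They received the vehicle DMSO or the compound BAY2506856 at 100, 300 or 1000 nM and were harvested after 1, 3, 6 or 24 h. Poly(A) RNA was sequenced in 6 replicates of DMSO and 3 replicates of each dose per time point, which gives 60 libraries in 16 groups. The labels give times from 1 to 24 h, whereas the design text of the series names 24 h only, and neither gives a target for the compound. No label states that replicates were separate cultures, so p-values measure the spread between these libraries, which may be technical.

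Cells secrete collagens, laminins and fibronectin into a meshwork that lysyl oxidases crosslink, and they grip it through integrins, receptors made of 1 alpha and 1 beta subunit. Laminins and type IV collagen form the sheet-like basement membrane beneath epithelia, whereas fibronectin, collagens I and VI and fibrillin form the fibrous interstitial matrix. In breast carcinoma these genes are known for their part in invasion and in the stiffening of the stroma, and several are textbook targets of transcription factors that respond to cell tension.

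Libraries had a median depth of 11.2 M reads (0.475 to 86.5 M). In the shallowest library, DMSO 24 h replicate 2, COL4A1 rested on 21 reads and THBS1 on 629. No label describes 3 library types that the values show, here separated by the levels of 11 pseudogenes and of MT-ND6, a mitochondrial transcript. There were 41 libraries of the first type, 13 of the second at all 4 times, and 6 of the third, all of them DMSO at 1 and 3 h. At 24 h the second type made up 2 of the 3 libraries at 1000 nM, 1 of 3 at 300 nM, 0 of 3 at 100 nM and 1 of 6 of DMSO. The markers of the line were present, with VIM at 397 to 642 FPKM in all 60 libraries and CAV1 at 212 to 338 FPKM. ESR1, the estrogen receptor, was at 0 in 59 of 60 libraries, and the fibroblast markers COL3A1 and DCN were at 0 in 32 and 56 libraries. CD3E, a T cell marker, was at 0 in all 60 libraries, CDH5, an endothelial cadherin, in 55, and HBB, a red cell marker, in 56. Other luminal markers were present, and the keratins were abundant, with medians of 121 FPKM for KRT19, 121 for KRT18 and 109 for KRT8. EPCAM had a median of 6.14 FPKM, GATA3 3.51 and CDH1 0.247, and PGR was at 0 in 44 libraries. Some markers of the fibroblast and leukocyte lists were detected at a low level. Medians were 0.791, 0.744 and 0.53 FPKM for the fibroblast markers COL1A1, PDGFRB and LUM, and 1.63 FPKM (0 to 2.83) for the leukocyte marker CD14. PTPRC, VWF, TEK, PDGFRA and HBA1 were at 0 in 18, 33, 30, 41 and 48 libraries. The summed level of the 6 fibroblast markers was 1.87 to 2.91 FPKM in DMSO and 1.32 to 2.5 FPKM at 1000 nM after 24 h, and that of the 8 luminal markers was 299 to 408 and 396 to 569 FPKM. The summed level of the 5 markers of the line was 1170 to 1230 and 1150 to 1190 FPKM. On the log2 scale 3 of these 5 rose at 1000 nM after 24 h (CD44 by 0.45, MSN by 0.33 and VIM by 0.29), while CAV1 was at -0.46 and AXL at -1.28 and both fell. Of the 6 tested luminal markers 3 rose (KRT19 by 1.11, EPCAM by 0.74 and CDH1 by 0.61), KRT18 (-0.46) and GATA3 (-0.62) fell, and KRT8 was not called at 0.03. The part of these markers in the results below was not tested.

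Promoter sequences are shown for 4 members that changed at 24 h and hold the motif GGAATG, and for COL4A1, which shares its start region with COL4A2. They come from RefSeq on GRCh38.p14, as the 250 bases before to 50 after a gene's start, and 33 of the 40 members had an entry. COL1A2, COL5A2, COL6A1, LOXL2, ITGA3, ITGB3 and ITGB4 had no entry. Capitals mark GGAATG, the core that TEAD factors bind, and in ITGA5 also TGAGTCA, a match to the AP-1 site TGANTCA, each searched on both strands. THBS1 lies at chr15:39580829-39581128 on the plus strand, COL12A1 at chr6:75206004-75206303, FBN1 at chr15:48644921-48645220 and ITGA5 at chr12:54419217-54419516, all on the minus strand.
THBS1: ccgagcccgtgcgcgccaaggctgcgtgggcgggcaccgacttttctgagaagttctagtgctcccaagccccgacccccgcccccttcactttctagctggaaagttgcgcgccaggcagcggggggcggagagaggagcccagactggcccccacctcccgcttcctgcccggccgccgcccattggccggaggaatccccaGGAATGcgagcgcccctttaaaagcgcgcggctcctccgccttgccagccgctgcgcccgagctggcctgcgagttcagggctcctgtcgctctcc
COL12A1: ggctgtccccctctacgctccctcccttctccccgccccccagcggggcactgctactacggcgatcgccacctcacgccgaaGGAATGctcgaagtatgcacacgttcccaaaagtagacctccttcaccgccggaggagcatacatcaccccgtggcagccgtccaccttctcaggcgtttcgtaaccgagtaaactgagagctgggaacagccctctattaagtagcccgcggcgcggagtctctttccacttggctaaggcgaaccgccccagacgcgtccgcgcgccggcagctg
FBN1: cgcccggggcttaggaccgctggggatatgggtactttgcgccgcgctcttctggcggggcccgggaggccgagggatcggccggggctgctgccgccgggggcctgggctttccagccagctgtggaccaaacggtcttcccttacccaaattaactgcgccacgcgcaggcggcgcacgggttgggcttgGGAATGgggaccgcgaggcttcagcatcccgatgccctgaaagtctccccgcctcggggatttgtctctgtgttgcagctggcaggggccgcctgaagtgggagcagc
ITGA5: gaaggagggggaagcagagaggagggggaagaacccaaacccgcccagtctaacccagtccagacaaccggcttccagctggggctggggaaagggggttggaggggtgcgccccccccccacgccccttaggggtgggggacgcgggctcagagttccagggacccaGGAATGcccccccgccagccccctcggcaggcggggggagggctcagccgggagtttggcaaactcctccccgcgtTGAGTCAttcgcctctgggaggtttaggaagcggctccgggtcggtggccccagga
The core GGAATG lies 46 bases before the start of THBS1, 167 before COL12A1, 58 before FBN1 and 82 before ITGA5, where the AP-1 match is 6 bases before the start. It was found in 6 of the 33 member promoters (SPARC, COL12A1, ITGB1, ITGA5, THBS1 and FBN1), beside 14.0% of all 27305 promoters. The AP-1 site was in 1 member promoter (ITGA5) beside 7.76% of all, and the SRF CArG box in 1 (ITGB6) beside 1.29%. The promoters of FN1, LTBP1, ITGA2, ITGA6, LAMC1 and CD44, which later rose, held none of the 3 motifs. The members with GGAATG include genes that later fell (THBS1, COL12A1), genes that later rose (FBN1, ITGA5) and ITGB1, whose later increase was borderline. Member promoters had a median GC content of 68.7%, and all promoters 58.3%. A match describes letters in this window and is not a bound site.

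COL4A1 and COL4A2, the chains of the common type IV collagen, start head to head on chromosome 13 and share their promoter. The window of COL4A1, chr13:110307108-110307407 on the minus strand, is printed with capitals over the 126 bases that lie between the COL4A1 start and the COL4A2 start.
COL4A1: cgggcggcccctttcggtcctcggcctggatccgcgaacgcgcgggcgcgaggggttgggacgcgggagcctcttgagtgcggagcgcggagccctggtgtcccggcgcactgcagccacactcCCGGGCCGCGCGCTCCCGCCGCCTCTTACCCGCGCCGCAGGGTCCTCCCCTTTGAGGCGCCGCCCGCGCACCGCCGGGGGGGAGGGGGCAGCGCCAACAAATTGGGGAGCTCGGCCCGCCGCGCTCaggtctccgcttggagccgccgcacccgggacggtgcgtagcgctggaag
The starts are 127 bases apart, and the windows of the pair share 226 bases. None of the 3 motifs was found in this window.

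In vehicle-treated cells the members differed widely in level. ITGB1, the beta subunit shared by most matrix-binding integrins, was highest with a median of 337 FPKM over the 24 DMSO libraries (278 to 480). THBS1, which encodes the secreted adhesion modulator thrombospondin, followed at 201 FPKM (132 to 238), and CD44, the hyaluronan receptor, at 160 FPKM (104 to 178). ITGA3, a laminin-binding alpha subunit, stood at 155 FPKM (74 to 210), close to CD44 and with an overlapping range. FN1 (fibronectin, 95.4 FPKM), LAMB3 (a laminin chain of epithelial basement membranes, 89.6 FPKM) and ITGA6 (a laminin-binding alpha subunit, 86.4 FPKM) came next, with ranges that overlapped each other. FPKM is a level per transcript length, so these levels can be set beside each other.

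The interstitial collagens were far lower. The median was 36.2 FPKM for COL6A1, 17.2 FPKM for COL6A2 and 5.09 FPKM for COL6A3, the chains of the microfibrillar type VI collagen, and 2.95 FPKM for COL1A2, a chain of type I collagen. ITGB3, the beta subunit of a vitronectin receptor, was the least abundant tested member at 1.23 FPKM. Of the tested members 34 reached 1 FPKM in all 60 libraries, and ITGB3 did so in 46. The 5 untested members stayed under 1 FPKM in all libraries, with DMSO medians of 0.484 FPKM for LAMA4 (a laminin chain of vessels), 0.24 for SPARC (a collagen-binding matricellular protein), 0.105 for COL5A2 and 0.0477 for ITGB6, while NID1 (nidogen, a basement membrane linker) was at a median of 0.

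Each dose was compared with DMSO of the same time in limma on log2(FPKM + 0.5), and a gene was called changed at a Benjamini-Hochberg adjusted p under 0.05 over all 15866 tested genes. Changes are log2 differences on that scale, with limma's standard error. The plot of changes by dose and time gives all 35 tested members. Little happened to the members before 6 h. At 1 h limma called 0 of 35 at any dose, beside 0% of all genes, and 6, 2 and 5 members had an unadjusted p under 0.05 at 1000, 300 and 100 nM. At 3 h it again called 0 of 35, beside 0.132%, 0.126% and 0.0693% of all genes, with 5, 3 and 3 members at an unadjusted p under 0.05. How many of all genes passed that unadjusted threshold was not counted here or below, so these member counts have no background. The voom fit on recovered reads also called 0 members at each dose at both times, whereas a fit with array weights called 17, 0 and 1 at 1 h and 10, 7 and 7 at 3 h for 1000, 300 and 100 nM. In that fit 40.2%, 0.0063% and 0.271% of all genes were called at 1 h and 24%, 19.3% and 23.3% at 3 h.

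**Figure D1:**
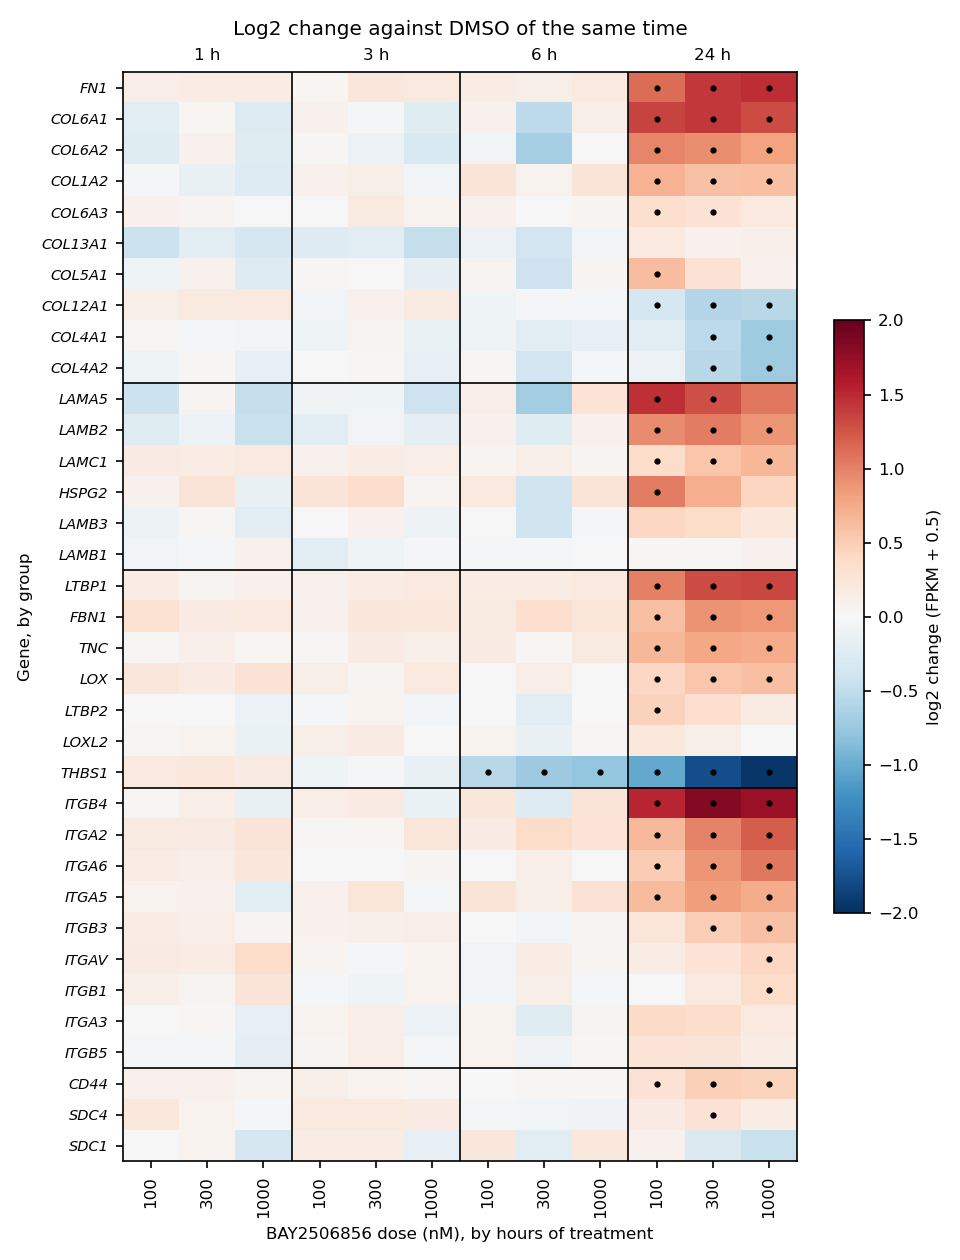
Log2 change of the 35 tested genes (rows, by group) against DMSO of the same time, at 100, 300 and 1000 nM (columns) after 1, 3, 6 and 24 h, with dots where limma's adjusted p was under 0.05. Dots appear for THBS1 alone at 6 h and for most genes at 24 h, where red is higher and blue lower than DMSO.

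THBS1 was the first member to change, and it fell at every dose after 6 h. The 6 DMSO libraries at 6 h had 192 FPKM (lowest), 201 (median) and 205 (highest). The 1000 nM libraries had 110, 119 and 119 FPKM, the 300 nM libraries 118, 121 and 121, and the 100 nM libraries 137, 136 and 134. All 9 treated libraries lay below all 6 DMSO libraries, and the 100 nM libraries lay above those of both higher doses. THBS1 fell by 0.78 ± 0.06 (SE) at 1000 nM (limma, adjusted p = 5.73e-13), by 0.73 ± 0.06 at 300 nM (6.05e-12) and by 0.56 ± 0.06 at 100 nM (3.24e-08). It was 1 of 35 members called at each dose, beside 2.01%, 1.67% and 0.863% of all genes at 1000, 300 and 100 nM. At 3 h the 1000 nM change was -0.15 (adjusted p = 0.602) and at 1 h it was 0.16 (adjusted p = 0.477).

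ITGA2, the alpha subunit of a collagen receptor, was at 39.7, 38.2 and 39.5 FPKM at 1000 nM after 6 h, beside 27.7 to 39.4 in DMSO with a median of 31.9. These libraries overlapped, since DMSO replicate 5, a library of the second type, held 39.4 FPKM. The change of 0.28 at 1000 nM was not called over all libraries (limma, adjusted p = 0.466). With terms for the library types ITGA2 was called at 1000 nM (0.33, adjusted p = 0.0106) and 300 nM (0.31, 0.0195), where 4.65% and 4.68% of all genes were called in that fit. Within the first type ITGA2 was called at 100 nM too (0.23, 0.0379), and ITGA5, the alpha subunit of the fibronectin receptor, was called at 1000 nM (0.20, 0.0246) and 300 nM (0.21, 0.0496), beside 7.7%, 4.83% and 3.37% of all genes at 1000, 300 and 100 nM.

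After 24 h most members had changed, and most of these were higher. At 1000 nM limma called 18 members higher and 4 lower of 35, beside 34.7% of all genes called in either direction, 19.1% higher and 15.6% lower. At 300 nM 19 were higher and 4 lower, beside 30.7% of all genes (16.5% higher and 14.2% lower). At 100 nM 20 were higher and 2 lower, beside 19.7% (10.5% higher and 9.2% lower). The median change of the tested members was 0.43, 0.48 and 0.42 at 1000, 300 and 100 nM, and that of all tested genes 0.03, 0.05 and 0.05. The 3 comparisons share the same 6 DMSO libraries. Libraries did not overlap between treated cells and DMSO for 17, 17 and 23 members at these doses, beside 22.8%, 24.1% and 26.7% of all genes.

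Among the integrins 7 of 9 tested subunits were called higher and 0 lower at 1000 nM, with the calls for ITGAV and ITGB1 borderline. ITGB4, the beta subunit that joins ITGA6 in the laminin receptor of hemidesmosomes, had the largest increase of the tested members. DMSO libraries at 24 h held 11.3 FPKM (lowest), 25.5 (median) and 34 (highest), and the 1000 nM libraries held 78.1, 112 and 51.1. All 3 treated libraries were above every DMSO library, and replicates 1 and 3, both of the second type, were the lower ones. ITGB4 rose by 1.73 ± 0.27 (limma, adjusted p = 8.06e-07), or 3.31-fold, from 24.4 ± 9.29 FPKM (SD, n = 6) to 80.5 ± 30.7 (SD, n = 3). At 300 nM it was at 100, 55.8 and 101 FPKM and at 100 nM at 73.7, 66 and 59.9 FPKM, all above DMSO, with changes of 1.84 and 1.52.

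ITGA6, its partner, rose by 1.06 ± 0.10 (limma, adjusted p = 8.5e-12), or 2.09-fold, on a level already high. It was at 77 to 99 FPKM in DMSO, with a median of 79.6, and at 183, 152 and 192 FPKM at 1000 nM. No treated library overlapped with DMSO, and here the 2 libraries of the second type were the higher ones. At 100 nM the values were 115, 118 and 122 FPKM, a change of 0.50, between DMSO and the higher dose.

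ITGA2 rose by 1.21 ± 0.13 at 1000 nM (limma, adjusted p = 3.74e-11), or 2.32-fold. DMSO libraries held 26.5 to 35.8 FPKM with a median of 29.6, the 100 nM libraries 47.2, 47.7 and 51.2, the 300 nM libraries 57.4, 72.5 and 56.3, and the 1000 nM libraries 80.1, 58.7 and 79.8. All 9 treated libraries were above all DMSO libraries, and the changes at 100 and 300 nM were 0.65 and 0.99. ITGA5 rose by 0.74 ± 0.15 (limma, adjusted p = 8.5e-05), from 13.7 ± 2.08 FPKM (SD, n = 6) to 23.2 ± 4.25 (SD, n = 3). ITGB3 rose by 0.59 (adjusted p = 0.000744) at a low level, from 0.846 to 1.53 FPKM.

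The other called subunits were borderline. ITGAV, the alpha subunit of vitronectin receptors, had a change of 0.42 (limma, adjusted p = 0.0276) and ITGB1 one of 0.36 (adjusted p = 0.0428). The ITGB1 libraries at 1000 nM held 500, 360 and 521 FPKM, beside 317 to 480 in DMSO with a median of 338, so that the groups overlapped. The call for ITGAV was lost without 1000 nM replicate 1 or 3 or DMSO replicate 1 or 5 (adjusted p 0.0559 to 0.208). That for ITGB1 was lost without 1000 nM replicate 1 or 3 or any DMSO replicate but 2 (0.0532 to 0.248) and in the voom fit on recovered reads (0.34, adjusted p = 0.0604). In libraries of the first type the ITGB1 change was 0.11 (adjusted p = 0.235). ITGA3 and ITGB5, at changes of 0.20 and 0.15, were not called at any dose. With terms for the library types both were called at each dose. ITGA3 was then at 0.48, 0.44 and 0.30 and ITGB5 at 0.30, 0.31 and 0.23 for 1000, 300 and 100 nM.

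Of 10 tested genes of fibronectin and the collagens 4 were higher at 1000 nM (FN1, COL1A2, COL6A1 and COL6A2) and 3 lower (COL4A1, COL4A2 and COL12A1). FN1 was at 49 to 93.8 FPKM in DMSO, with a median of 81.3, and at 207, 209 and 204 FPKM at 1000 nM. The treated libraries were all above every DMSO library and differed little from each other, although they came from both library types. FN1 rose by 1.48 ± 0.12 (limma, adjusted p = 1.02e-14), or 2.80-fold, and by 1.41 and 1.11 at 300 and 100 nM, where the libraries held 191 to 201 and 154 to 169 FPKM.

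COL6A1 was at 11.6 to 35.4 FPKM in DMSO, with a median of 28.9, and at 60.1, 93.5 and 36.8 FPKM at 1000 nM. The groups did not overlap, but replicate 3 at 1000 nM, of the second type, was only just above the highest DMSO library. COL6A1 rose by 1.30 ± 0.31 (limma, adjusted p = 0.000623), or 2.47-fold. COL6A2 was called at 0.81 ± 0.30 (adjusted p = 0.0341) with libraries of 19.5, 29.8 and 13.4 FPKM beside 4.6 to 17.2 in DMSO, which overlapped. That call was lost without 1000 nM replicate 1 or 2 or DMSO replicate 2 or 4 (adjusted p 0.081 to 0.244). COL6A3, the third chain of type VI collagen, was at 0.20 (adjusted p = 0.105) at 1000 nM and was called at 300 nM (0.29) and 100 nM (0.34). With terms for the library types COL6A3 was called at each dose (0.26, 0.31 and 0.32 at 1000, 300 and 100 nM). COL1A2 rose by 0.60 (adjusted p = 0.00561), from 3.53 to 5.41 FPKM.

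COL4A1 was at 5.3 to 8.85 FPKM in DMSO, with a median of 7.54, and at 4.89, 4.71 and 3.43 FPKM at 1000 nM. All 3 treated libraries were below every DMSO library. COL4A1 fell by 0.71 ± 0.10 (limma, adjusted p = 1.27e-07), or 1.64-fold, and by 0.53 at 300 nM, and it was not called at 100 nM. COL4A2, which starts 127 bases away on the other strand, fell by 0.71 ± 0.20 (adjusted p = 0.00408) to 11.8, 15.4 and 9.21 FPKM, beside 12.3 to 26.4 in DMSO, with overlap. The COL4A2 call was lost without 1000 nM replicate 3 (-0.53, adjusted p = 0.0743), and its change was -0.47 (adjusted p = 0.0563) within the first library type. COL12A1, a fibril-associated collagen whose promoter is shown above, fell by 0.55 ± 0.11 (adjusted p = 5.93e-05), from 18.3 ± 2.96 FPKM (SD, n = 6) to 12.4 ± 1.97 (SD, n = 3). Of the uncalled collagens, COL5A1 was at 0.08 and COL13A1 at 0.10, and both changed sign in other settings.

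Of 6 tested members of the laminin and basement membrane group, 2 were called higher and 0 lower at 1000 nM, beside 34.7% of all genes called. With terms for the library types 5 of 6 were called higher and 0 lower at each dose. In that fit 47.5%, 44.6% and 30.6% of all genes were called at 1000, 300 and 100 nM. LAMB2, a beta chain of several mature laminins, was at 12.6 to 26.4 FPKM in DMSO, with a median of 20.9, and at 33.2, 48 and 31.1 FPKM at 1000 nM. No library overlapped, and LAMB2 rose by 0.88 ± 0.22 (limma, adjusted p = 0.00135), or 1.85-fold. LAMC1, the gamma chain of most laminins, rose by 0.66 ± 0.07 (adjusted p = 4.92e-11), from 38.3 ± 2.63 FPKM (SD, n = 6) to 60.6 ± 4.72 (SD, n = 3). LAMA5, an alpha chain of widespread basement membranes, was at 10.9, 24.8 and 5.64 FPKM at 1000 nM, beside 1.3 to 11.4 in DMSO. Its change of 1.05 ± 0.48 was not called there (adjusted p = 0.0831), and LAMA5 was called at 300 nM (1.29) and 100 nM (1.46). HSPG2, which encodes the basement membrane proteoglycan perlecan, was called at 100 nM (1.02) and not at 1000 nM (0.43, adjusted p = 0.386). With terms for the library types both genes were called at each dose. LAMA5 was then at 1.65, 1.49 and 1.26 and HSPG2 at 0.91, 0.89 and 0.86 for 1000, 300 and 100 nM. LAMB1 and LAMB3, at 0.09 and 0.21, were not called at any dose without these terms. With them LAMB3 was called at each dose (0.51, 0.46 and 0.32 at 1000, 300 and 100 nM) and LAMB1 at none.

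Among the matricellular, elastic fibre and crosslinking genes 4 of 7 tested members rose and 1 fell at 1000 nM. THBS1 went on falling after 6 h and had the largest change of the tested members. It was at 132 to 163 FPKM in DMSO at 24 h, with a median of 154, and at 36.2, 38 and 41.9 FPKM at 1000 nM. The 300 nM libraries held 42.6, 45.8 and 42.3 FPKM and the 100 nM libraries 75.5, 73.5 and 72.4. The 4 groups did not overlap, although the highest 1000 nM library and the lowest 300 nM library were close. THBS1 fell by 1.95 ± 0.06 at 1000 nM (limma, adjusted p = 3.55e-29), or 3.86-fold, by 1.78 at 300 nM and by 1.02 at 100 nM.

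LTBP1, which tethers latent TGF-beta to the matrix, was at 7.09 to 11.3 FPKM in DMSO, with a median of 9.56, and at 22.5, 24.6 and 26.7 FPKM at 1000 nM. The groups stood well apart, and LTBP1 rose by 1.33 ± 0.09 (limma, adjusted p = 3.72e-17), or 2.52-fold. FBN1, which encodes the microfibril protein fibrillin that LTBP1 binds to, was at 2.07 to 3.65 FPKM in DMSO, with a median of 3.25, and at 5.91, 6.03 and 5.93 FPKM at 1000 nM. FBN1 rose by 0.86 ± 0.11 (adjusted p = 2.13e-08), or 1.81-fold, without overlap. TNC, the matricellular tenascin, rose by 0.74 (adjusted p = 2.16e-08) and LOX, a lysyl oxidase, by 0.60 (adjusted p = 9.68e-05). LTBP2 was called at 100 nM (0.46) and not at 1000 nM (0.18), and LOXL2, a second lysyl oxidase, was called at no dose (-0.01 at 1000 nM). With terms for the library types LTBP2 was called at each dose (0.34, 0.38 and 0.40 at 1000, 300 and 100 nM) and LOXL2 at none.

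Of the other receptors CD44 rose and the syndecans were not called at 1000 nM. CD44 was at 104 to 118 FPKM in DMSO and at 149, 151 and 154 FPKM at 1000 nM, without overlap. It rose by 0.45 ± 0.04 (limma, adjusted p = 2.43e-12), a small change with a small error. SDC4 was at 0.15 (adjusted p = 0.0968) and was called at 300 nM (0.29). SDC1 was at -0.45 ± 0.25 (adjusted p = 0.16), with 16.6, 24.2 and 11 FPKM beside 12.1 to 29.3 in DMSO.

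**Figure D2:**
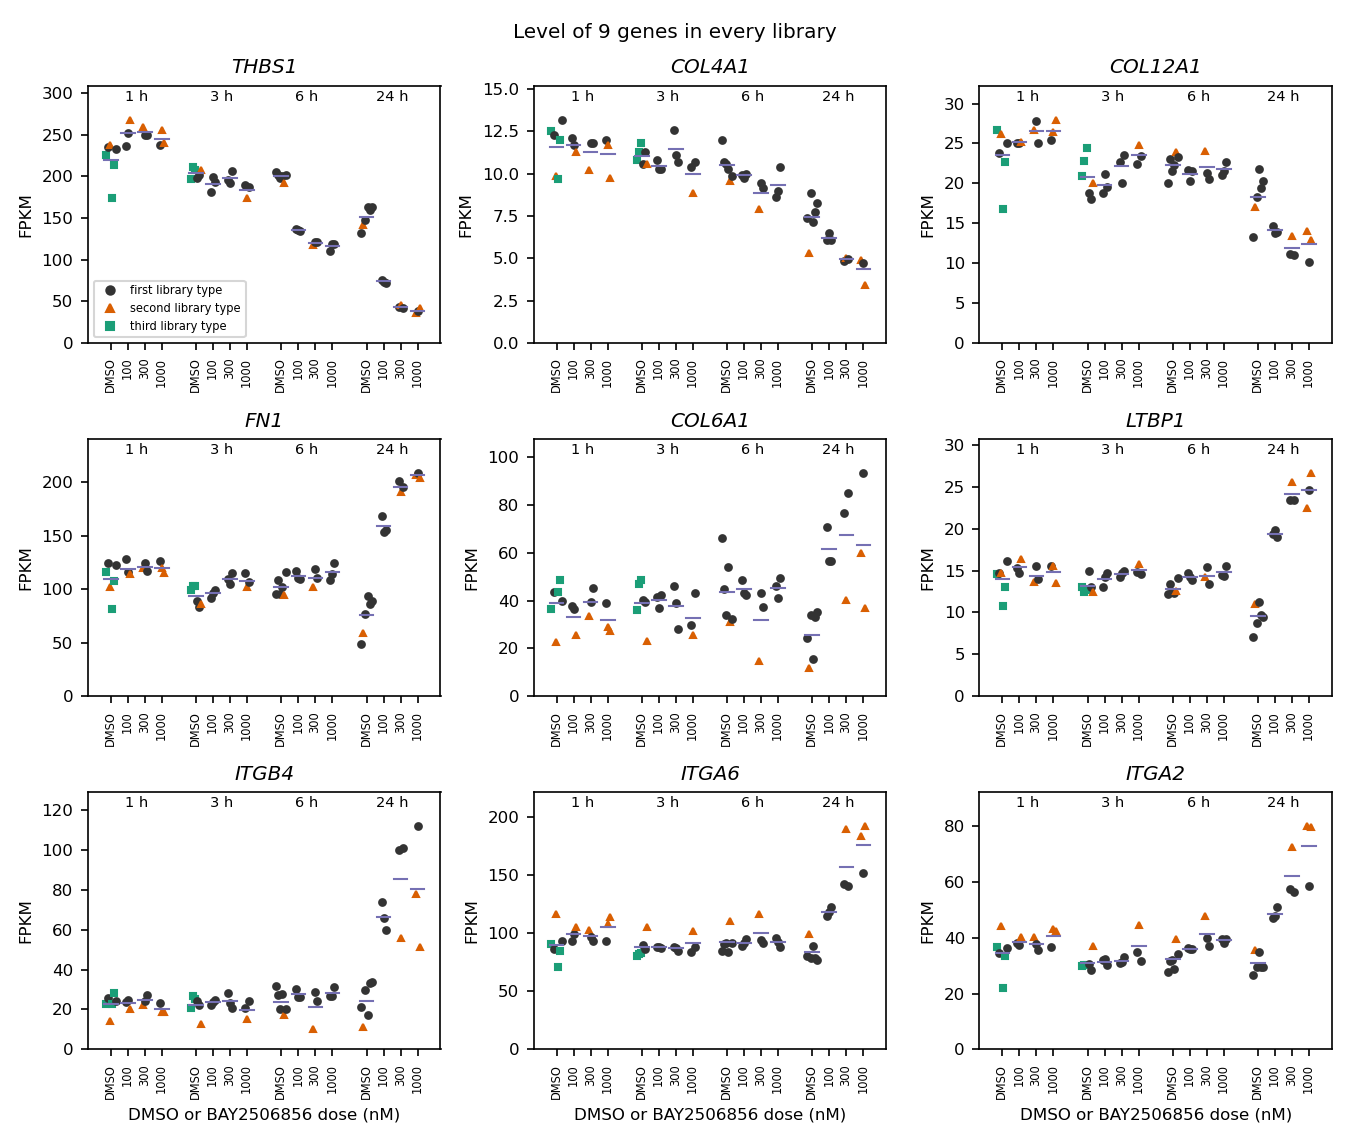
FPKM of 9 genes in each of the 60 libraries by DMSO or dose (nM) and time, with symbols for the library types and a line at each group mean. THBS1 is lower from 6 h on, and FN1, LTBP1, ITGB4, ITGA6 and ITGA2 are above DMSO at 24 h, with COL6A1 and ITGB4 lower in libraries of the second type.

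Some members also differed between the highest and the lowest dose. At 24 h 15 members were called higher at all 3 doses, namely FN1, COL1A2, COL6A1, COL6A2, LAMB2, LAMC1, TNC, FBN1, LOX, LTBP1, ITGA2, ITGA5, ITGA6, ITGB4 and CD44. THBS1 and COL12A1 were called lower at all 3. Calls at all 3 doses were not counted over all genes. They can cover at most the 10.5% of all genes called higher and the 9.2% called lower at 100 nM. The 3 comparisons share their DMSO libraries, so these calls are not independent. Between 1000 and 100 nM limma called 6 of 35 members, beside 4.94% of all genes. ITGA2 (0.56, adjusted p = 0.0133), ITGA6 (0.56, 0.00196), LAMC1 (0.29, 0.0211) and CD44 (0.16, 0.0445) were higher at 1000 nM, and THBS1 (-0.92, 3.13e-13) and COL4A1 (-0.49, 0.00706) lower. FN1 was at 207 ± 2.26 FPKM (SD, n = 3) at 1000 nM and 159 ± 8.24 (SD, n = 3) at 100 nM, and was not called between these doses. At 6 h 0 of 35 were called between 1000 and 100 nM, beside 0.0189% of all genes, with 1 member at an unadjusted p under 0.05 and 0 calls with voom.

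The second library type made up 2 of the 3 libraries at 1000 nM and 0 of 3 at 100 nM, so that dose and library type are largely mixed in this comparison. With terms for the types limma called 10 members between these doses, 8 higher and 2 lower, beside 7.92% of all genes. ITGA2 was then at 0.37 (adjusted p = 0.0148), ITGA6 at 0.38 (2.01e-05), LAMC1 at 0.22 (0.0274), CD44 at 0.18 (0.000405), THBS1 at -0.93 (1.1e-13) and COL4A1 at -0.35 (0.0179). Within the first type, with a single library at 1000 nM, 4 members were called beside 5.2% of all genes, and ITGA6 (0.36, adjusted p = 0.00108), THBS1 (-0.95, 5.42e-10) and COL4A1 (-0.37, 0.025) were among them. There ITGA2 (0.27, 0.143), LAMC1 (0.16, 0.233) and CD44 (0.15, 0.0584) were not called. The first-type library at 1000 nM held 58.7 FPKM of ITGA2, beside 47.2 to 51.2 at 100 nM, and 152 FPKM of ITGA6, beside 115 to 122.

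Not all of these calls held when a library was left out. Between 1000 and 100 nM only the calls for THBS1 and ITGA6 held without each of the 6 libraries in turn, and the count moved to 3 without 100 nM replicate 1 or 1000 nM replicate 1, to 2 without 100 nM replicate 2 or 1000 nM replicate 3, and to 10 without 1000 nM replicate 2. A fit of only the groups compared called 0 members between these doses, and voom called 5. At 100 nM against DMSO the calls for COL5A1, LAMA5 and HSPG2 were each lost without any 1 of the 3 treated libraries and without DMSO replicate 2 or 4, and those for COL5A1 and HSPG2 also without DMSO replicate 1. There COL6A2 was lost without 100 nM replicate 1 or DMSO replicate 2, COL12A1 without replicate 2 or 3, LOX without replicate 3 and LTBP2 without replicate 1. At 300 nM COL1A2 was lost without 300 nM replicate 1 or 3, COL6A2 without these or DMSO replicate 2, LAMA5 without these or DMSO replicate 2 or 4, COL6A3 without 300 nM replicate 2 or 3 or DMSO replicate 2, COL4A2 without 300 nM replicate 2 or DMSO replicate 3, 5 or 6, and ITGB3 without 300 nM replicate 2.

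The step from 6 to 24 h was tested as the difference between the 1000 nM effects at the 2 times, each against its own DMSO. Limma called 13 of 35 members, 10 upward and 3 downward, beside 15.1% of all genes. The effect grew by 1.46 for ITGB4 (adjusted p = 0.00468), 1.30 for FN1 (5.47e-08), 1.13 for LTBP1 (1.9e-09) and 1.06 for ITGA6 (3.68e-07). It grew downward by -1.16 for THBS1 (3.74e-14), -0.55 for COL4A1 (0.00495) and -0.51 for COL12A1 (0.0159). ITGA5 was not called here (0.45, adjusted p = 0.161). The calls for COL4A1 and LOX were lost without 1000 nM 24 h replicate 3 (adjusted p = 0.0598 and 0.0656) and that for COL12A1 without replicate 2 (0.0836).

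The vehicle itself changed with time, downward. From DMSO at 6 h to DMSO at 24 h limma called 20 of 35 members lower and 0 higher, beside 9.34% of all genes in either direction and 4.38% lower. The median change was -0.31 for the members and -0.02 for all tested genes. CD44 fell by 0.52 ± 0.03 (limma, adjusted p = 8.5e-16), from 155 to 165 FPKM at 6 h to 104 to 118 FPKM at 24 h, with no overlap. THBS1 fell by 0.41 (adjusted p = 1.74e-07), FN1 by 0.47 (0.000634), COL4A1 by 0.48 (4.43e-05) and LTBP1 by 0.42 (5.05e-05). By group 7 of 10 members of fibronectin and the collagens, 3 of 6 of the basement membrane group, 6 of 7 of the matricellular group and all 3 other receptors were lower, but only 1 of 9 integrins, ITGA3 (-0.56, adjusted p = 0.0102).

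Leaving out single libraries moved this count too. It was 12 without DMSO 6 h replicate 1, 13 without DMSO 6 h replicate 2 and 13 without DMSO 24 h replicate 2, the shallowest library, and 5 in a fit of only the groups compared. In the fit over all groups, the calls for FN1, COL4A1, COL4A2, COL6A3, LAMB1, LAMC1, THBS1, TNC, LTBP1 and CD44 held without each of the 12 libraries in turn, while each DMSO 6 h replicate and DMSO 24 h replicates 1 to 5 ended at least 1 of the other 10 calls.

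The 24 h libraries at 1000 nM were also set against DMSO at 6 h, a comparison chosen after the data had been seen, in which dose and time change together. Of 35 members 13 were higher and 8 lower (60%), beside 44.3% of all genes called and 23.5% higher. The 3 treated libraries are the same as in the comparison with DMSO at 24 h. ITGB4 (1.69), ITGA2 (1.16), FN1 (1.02), ITGA6 (0.93) and LTBP1 (0.91) stood above both. CD44 was at -0.07 (limma, adjusted p = 0.152) and COL6A2 at -0.05 (0.908) against DMSO at 6 h, and COL6A1 (0.49, 0.2), LOX (0.27, 0.0711) and ITGAV (0.33, 0.0774) were not called either. CD44 was thus at 149 to 154 FPKM in treated cells at 24 h, beside 155 to 165 FPKM in DMSO at 6 h and 104 to 118 FPKM in DMSO at 24 h. THBS1 (-2.36), COL4A2 (-1.41), COL4A1 (-1.19) and SDC1 (-1.10, adjusted p = 0.000256) were lower than in DMSO at 6 h.

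**Figure D3:**
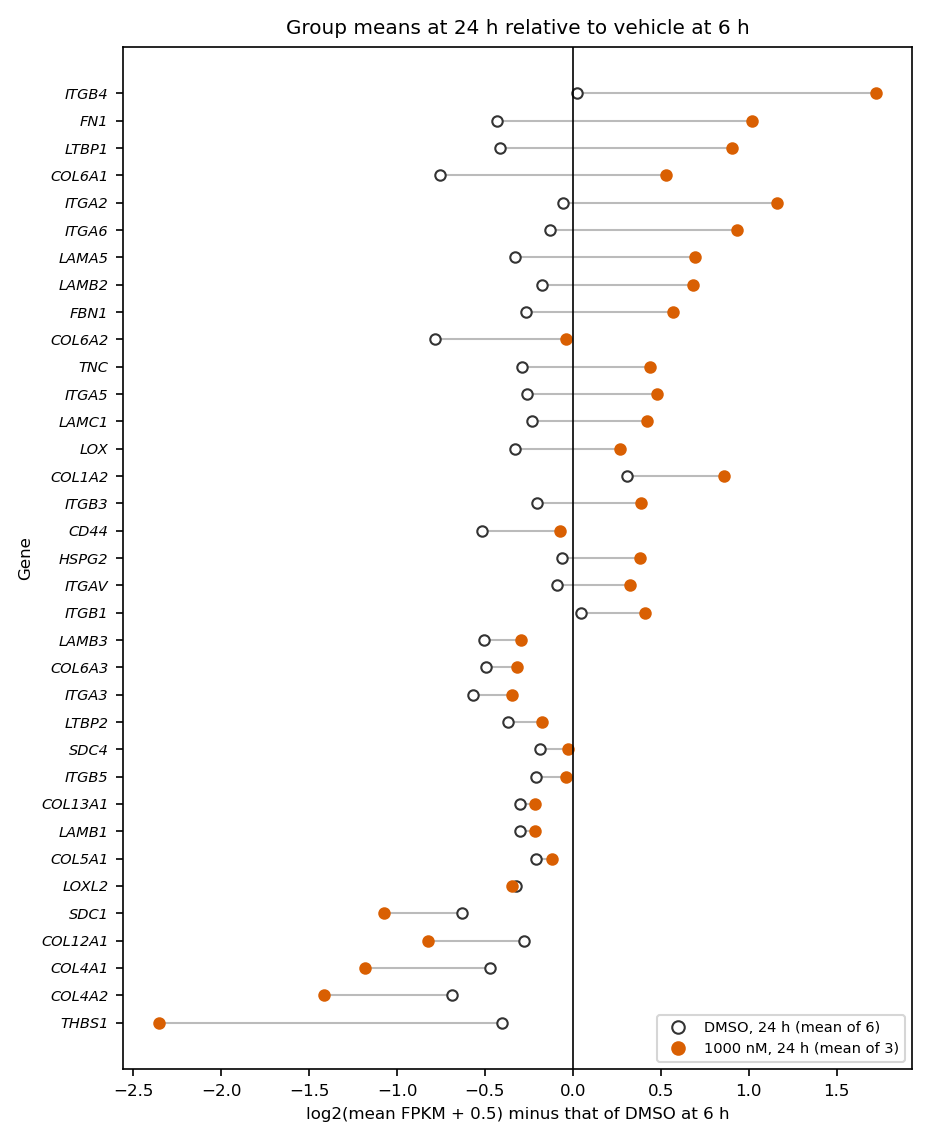
Group means at 24 h of DMSO (open, mean of 6 libraries) and 1000 nM (filled, mean of 3), as log2(mean FPKM + 0.5) minus that of DMSO at 6 h, for the 35 tested genes. Most open points lie left of 0, and the filled points of ITGB4, ITGA2, FN1, ITGA6 and LTBP1 lie right of both.

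The library type moved many members, and at 24 h it was unevenly spread over the doses. In a fit with type terms the second type was lower than the first in 23 members and higher in 7 (85.7% differing), with a median of -0.20, beside 73.1% of all genes differing and a median of -0.04. LAMA5 (-1.19), HSPG2 (-0.97), COL6A1 (-0.78), SDC1 (-0.73) and ITGB4 (-0.71) were the lowest in the second type, and ITGB1 (0.42), ITGAV (0.32), ITGA2 (0.29) and ITGA6 (0.28) the highest. With these terms limma called 27 members higher and 4 lower at 1000 nM, 26 and 4 at 300 nM and 24 and 3 at 100 nM, beside 47.5%, 44.6% and 30.6% of all genes.

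At 1000 nM 21 members were called with and without the terms. A further 10 were called with the terms only, namely COL5A1, COL6A3, COL13A1, LAMA5, LAMB3, LTBP2, HSPG2, ITGA3, ITGB5 and SDC4, and ITGAV without them only. LAMA5 was at 1.65 (limma, adjusted p = 7.99e-06) with the terms, HSPG2 at 0.91 (0.000875), LAMB3 at 0.51 (0.000132) and ITGA3 at 0.48 (1.99e-05). ITGB4 was at 2.08, COL4A2 at -0.44, ITGB1 at 0.15 (adjusted p = 0.0264) and ITGAV at 0.26 (0.0623). THBS1 was at -1.95 and LTBP1 at 1.32 with the terms, close to their values without them. Within the first type, where 1000 nM keeps a single library that is assumed to vary like the other groups, 22 members were higher and 3 lower, beside 35.9% of all genes called. What the types stand for was not tested.

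**Figure D4:**
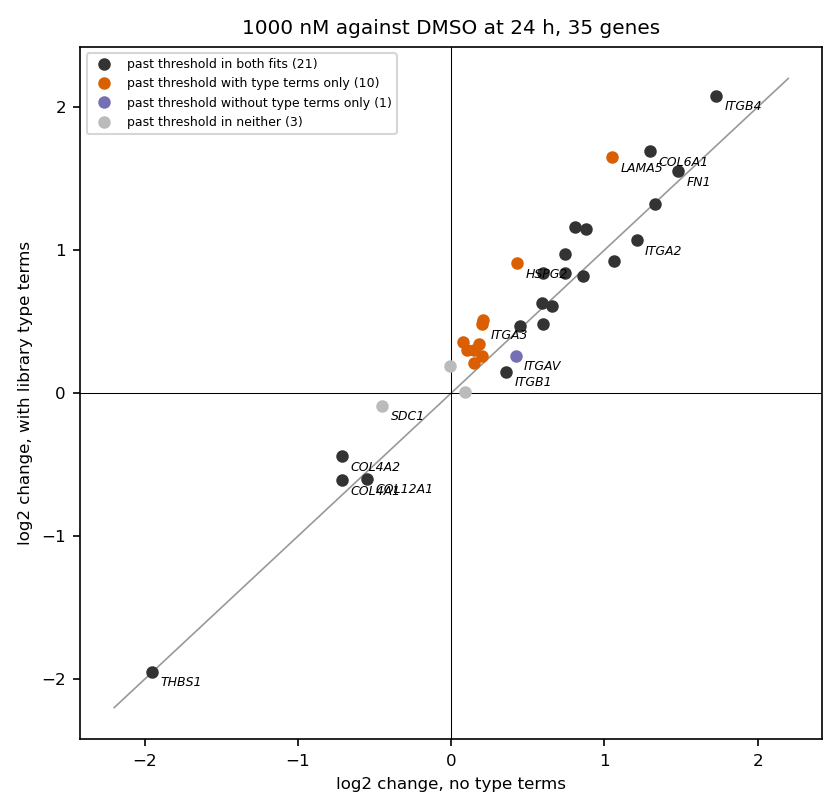
Log2 change at 1000 nM against DMSO at 24 h for the 35 tested genes without (x axis) and with (y axis) terms for the library types, coloured by which fit had an adjusted p under 0.05. THBS1 lies on the line of equal values, while LAMA5, HSPG2 and ITGB4 lie above it and ITGAV and ITGB1 below.

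Genes that work with the members were counted from 4 further lists at 1000 nM after 24 h. Of genes that modify and crosslink collagen, 8 of 17 tested rose and 1 fell. LOXL1, a lysyl oxidase, rose by 0.99, BMP1, which trims procollagen, by 0.71 and P4HA2, a prolyl hydroxylase, by 0.66, while the crosslinking transglutaminase TGM2 fell by 0.76. Of adhesion plaque genes, which tie integrins to actin, 6 of 27 rose and 2 fell. The integrin activator FERMT1 rose by 0.98, the scaffold NEDD9 by 0.84 and the tensin TNS4 by 0.81, and the actin crosslinker ACTN1 (-0.71) and TRIP6 (-0.70) fell.

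Of other matrix proteins 5 of 18 rose and 4 fell. LTBP3 (0.91), THBS3 (0.86) and LAMA3 (0.79) were higher, and EFEMP1 (-1.37), FSTL1 (-0.83) and COL8A1 (-0.56) lower. Of other integrins and matrix receptors 6 of 16 rose and 0 fell, with the proteoglycan CSPG4 at 1.57, the dystroglycan gene DAG1 at 0.93 and the collagen-receptor subunit ITGA1 at 0.91. The background for these counts is the 34.7% of all genes called at this dose and time, 19.1% higher and 15.6% lower. Counting both directions, adhesion plaque genes and other integrins and matrix receptors were called about as often as all genes. Genes that modify and crosslink collagen and other matrix proteins were called more often. The lists are short, and the difference from all genes was not tested. At 6 h limma called 0 genes of the 4 lists at 1000 nM, beside 2.01% of all genes. In the order given 0, 5, 1 and 1 had an unadjusted p under 0.05, a share not counted for all genes.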

How the data were processed

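The authors deposited log2(FPKM + 1) values of 38342 genes in 60 libraries, per the file headers and the values. The submitters' processing notes name STAR 2.4.2a, featureCounts 1.4.6-p2, Subread, DESeq2 and the build hg19, and no annotation release is stated. Per the labels' protocols, libraries were stranded, poly(A) selected and sequenced as single reads.

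The planned tests took FPKM as input, so the deposited log2 values were turned back into FPKM. Whole reads were recovered from gene lengths (GENCODE 29 or a search), and 100% of the values above 0 in genes with a length, which hold 99.52% of such values, lay within 0.01 read of a whole number. Depth was 0.475 to 86.5 M reads per library. Reads carry no molecular identifiers.

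Of 36114 genes above 0, 15866 passed a minimum of 1 FPKM in 3 or more libraries and were fitted with limma 3.58.1 in R 4.3.3 on log2(FPKM + 0.5). The fit had 1 mean per group over all 60 libraries, 44 residual degrees of freedom, a mean-variance trend and robust variances. It takes all libraries as equally precise at a given level, whatever their depth, whereas voom on the recovered reads weights them by count. Fits were also run on simulated reads, with the same spread for every gene and no library types. Those runs therefore do not show how the fits behave when library types differ. Calls needed a Benjamini-Hochberg adjusted p under 0.05, within each of 16 comparisons. Within-group pairs of libraries (96) differed by more than sampling noise (chi-square per degree of freedom 1.55 to 142), so none was counted as a duplicate.

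Members and lists were chosen with earlier results of these data known. By plan, single treated libraries and the DMSO range were given for members called at 1000 nM at 3 or 6 h. They were also planned for members called at 1000 nM after 24 h without overlap and among the 10 highest or 10 lowest there. The others were to be given by level and change. The text departs from this plan, since single treated libraries were also printed for LAMA5, SDC1, ITGB1, COL6A2, COL4A2 and CD44. TNC and ITGA5 were given without single libraries at 24 h. At most 3 called genes in each direction were named from a related list. Alternatives were a pseudocount of 0.1, no filter, array weights, median-of-ratios scaling, library type terms, only the groups compared, the first type only, voom, leaving out the libraries under 2 M reads and leaving out each library. Library types were read from the values, and DMSO at 6 h as a reference was chosen after the data had been seen.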

Additional observations from a re-analysis of the deposited data

Results flagged for a closer look

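Of 140 sets of 6 DMSO libraries (35 members at 4 times), 20 held a library far from the others by Dixon's criterion of 0.625, which chance exceeds in about 5% of sets. In 18 of these the library was of the second type. DMSO 1 h replicate 3 was low for COL1A2 at 1.9 FPKM, COL4A2 at 21.9, COL5A1 at 18.7, LAMB3 at 59.9, LOXL2 at 50.1, ITGA3 at 103 and ITGA5 at 12.3 FPKM. DMSO 3 h replicate 6 was low for COL1A2 at 2 FPKM, LOXL2 at 52.4, ITGA3 at 112 and ITGA5 at 12.1 FPKM. It was high for ITGA2 at 37.2 FPKM, ITGAV at 38.7 and ITGB1 at 469 FPKM. DMSO 6 h replicate 5 was low for COL6A3 at 4.62 FPKM and ITGA5 at 11.7 FPKM, and high for ITGA6 at 110 FPKM. DMSO 24 h replicate 2 was high for ITGB1 at 480 FPKM. The exceptions were THBS1 in DMSO 1 h replicate 4, a library of the third type, at 174 FPKM (the nearest was 214), and LTBP1 in DMSO 3 h replicate 4, of the first type, at 15 FPKM (nearest 13.1).

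The effect of 1000 nM differed between 24 and 6 h by the test of that difference (limma) in 13 members. The difference was 1.30 for FN1, 0.59 for LAMC1, 0.57 for TNC, 0.62 for FBN1, 0.61 for LOX, 1.13 for LTBP1, 0.93 for ITGA2, 1.06 for ITGA6, 1.46 for ITGB4 and 0.42 for CD44. It was -0.55 for COL4A1, -0.51 for COL12A1 and -1.16 for THBS1.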

How the results depend on the processing

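The 24 h counts of members called at 1000 nM (22), 300 nM (23) and 100 nM (22) stayed within 1.5 times in each alternative run. The share of all genes called was 34.7%, 30.7% and 19.7% in the main fit and varied between runs. Array weights called 22, 32 and 29 members beside 54.9%, 52.5% and 40.3% of all genes, so that the members stood out less at 1000 nM. Without a filter 20, 22 and 20 were called beside 16.9%, 15.1% and 9.03% of 36114 genes. Array weights gave 17, 0 and 1 called members at 1 h, 10, 7 and 7 at 3 h and 4, 6 and 3 at 6 h (1000, 300 and 100 nM), 15 and 1 between 1000 and 100 nM at 24 and 6 h, and 22 for 24 h minus 6 h, beside 40.2%, 0.0063% and 0.271%, 24%, 19.3% and 23.3%, 13.6%, 13.3% and 7.42%, 44.3% and 0.334%, and 43.7% of all genes in the same order. Type terms gave 2 and 2 at 6 h (1000 and 300 nM), 10 between doses at 24 h and 26 for 24 h minus 6 h (4.65%, 4.68%, 7.92% and 27.4% of all genes). The first type alone gave 3, 3 and 2 at 6 h and 22 for 24 h minus 6 h (7.7%, 4.83%, 3.37% and 23.2%). With only the groups compared, 0 members were called between 1000 and 100 nM at 24 h and 5 between DMSO at 24 and 6 h, where no filter gave 12. Leaving out each library gave 2 to 10 between doses at 24 h and 12 to 22 between the DMSO times.

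The changes at 1000 nM after 24 h that turned sign belonged to members not called. With array weights COL5A1 was at -0.22, COL13A1 at -0.07, LAMB3 at -0.11, HSPG2 at -0.03 and ITGA3 at -0.03. Without libraries under 2 M reads COL5A1 was at -0.03 and COL13A1 at 0.00. LAMB1 was at -0.06 in the first type, and LOXL2 at 0.19 there and with type terms. Leaving out each library gave COL13A1 0.00 to 0.23, COL5A1 -0.19 to 0.32, HSPG2 -0.01 to 0.88, ITGA3 -0.01 to 0.39, LAMB3 -0.03 to 0.39 and LOXL2 -0.16 to 0.10. The cause was not tested. No paired analysis was possible because the titles carry running numbers that give no replicate numbers shared between groups. The 5 untested members were left out by their level, under 1 FPKM in all libraries. Depth limits the library of 0.475 M reads, in which COL4A1 had 21 reads.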
